A study of Mus musculus with 8 samples.

Results

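Chromatin accessibility was examined at 9 genes that encode inflammasome sensors other than NLRP3, NOD receptors and their caspases, namely Nlrp1a, Nlrp1b, Nlrc4, Aim2, Mefv, Nod1, Nod2, Casp4 and Casp8. Every peak that the deposited table assigns by gene name to one of these genes was taken, which gave 48 of 67822 peaks and 9 of 16095 genes with a peak. The libraries are ATAC-seq, in which a transposase cuts open chromatin and leaves sequencing adapters, from CD11b-positive microglia of mouse forebrain. The 4 wild-type libraries came from mice of the C57BL/6N background, and the 4 knockout libraries from mice that lack Cias1, an older name of Nlrp3, of a line called Nlrp3-/- that the labels credit to Millennium Pharmaceuticals. No background is given here for that line. Loss of Nlrp3 goes together with mouse line in these libraries, so differences due to either cannot be told apart. Age, sex and any treatment are not given in the labels, nor whether the replicates of a genotype were separate animals, so p-values measure the spread between these libraries, which may be technical. Gene expression was not measured here.

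Inflammasome sensors are cytosolic proteins that detect microbial products or disturbed cell physiology and, through the adaptor ASC, activate caspase-1, which matures interleukin-1β and cuts gasdermin D to open pores in the membrane. NOD receptors detect fragments of bacterial peptidoglycan and signal through the kinase RIPK2 to NF-kB rather than through caspase-1. Microglia are the resident macrophages of the brain and express many of these receptors, and NLRP3 is the sensor of the family studied most in them.

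The target served as a check of the labels: each of the 2 Nlrp3 promoter peaks held 0 to 1 tag per knockout library and 54 to 80 per wild-type library. Intronic Nlrp3 peaks kept tags in the knockout. That at 11:59554643–59554917 held 25, 19, 18 and 21 tags in wild-type replicates 1 to 4 and 11, 8, 17 and 35 in knockout replicates 1 to 4. Total tags per library ranged from 11325865 to 15521580, and the share of them in listed peaks from 9.79% to 17.5% in wild type and from 4.96% to 26.2% in the knockout. Knockout replicates 1 and 2 stand apart in this share (6.68% and 4.96%), not in total tags, and had 868248 and 709738 tags in peaks against 1476729 or more in the other libraries. The label of the cells was checked against markers: all 8 microglial marker genes had peaks, with a median of 214 CPM per gene in wild type, while the median was 108 CPM over 3 endothelial genes, 34.6 over the oligodendrocyte lineage, 33.2 over border macrophages and monocytes, 18.03 over astrocytes and 15.9 over 4 neuronal genes, and 1 of 5 granulocyte and lymphocyte genes had a peak. CPM are tags per 1000000 tags in tested peaks after TMM scaling, given as mean ± SD with n = 4 libraries per genotype. Summed over each list, microglial markers ranged from 1894 to 2144 CPM in wild type and from 2092 to 2313 in the knockout, border macrophage and monocyte markers from 188 to 304 and from 151 to 362, and astrocyte markers from 315 to 394 and from 360 to 510.

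By the deposited annotation the 48 peaks comprised 10 promoter peaks, 27 intronic, 10 intergenic and 1 at a gene end. Introns held 56.2% of them, against 42.9% of all listed peaks, and promoters 20.8% against 19.5%. Aim2 had 13 peaks, Nod1 11, Nod2 7, Casp8 5, Nlrp1b, Nlrc4 and Mefv 3 each, Nlrp1a 2 and Casp4 1, where the median gene with a peak had 3. The authors kept a list of reproducible peaks for each genotype: 40 of the 48 stood in both, 6 in that of wild type alone and 2 in that of the knockout alone. After the filter on low counts 44 peaks were tested, and the other 4 (3 of Aim2 and 1 of Casp8) were too low.

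Per kilobase of peak, wild-type accessibility was highest at Nlrp1b (133 ± 20.8 CPM per kb), Nod2 (111 ± 14.99) and Casp8 (90.5 ± 11.8). Aim2 (55.4 ± 5.29), Nlrc4 (55.0 ± 11.1), Nlrp1a (52.9 ± 9.87) and Casp4 (46.0 ± 5.99) followed, and Nod1 (31.3 ± 1.82) and Mefv (31.2 ± 7.58) were lowest. In this order of levels per kilobase the libraries of neighbouring genes overlapped except between Casp8 and Aim2 and between Casp4 and Nod1. This order of the genes is a description, with no test.

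**Figure D1:**
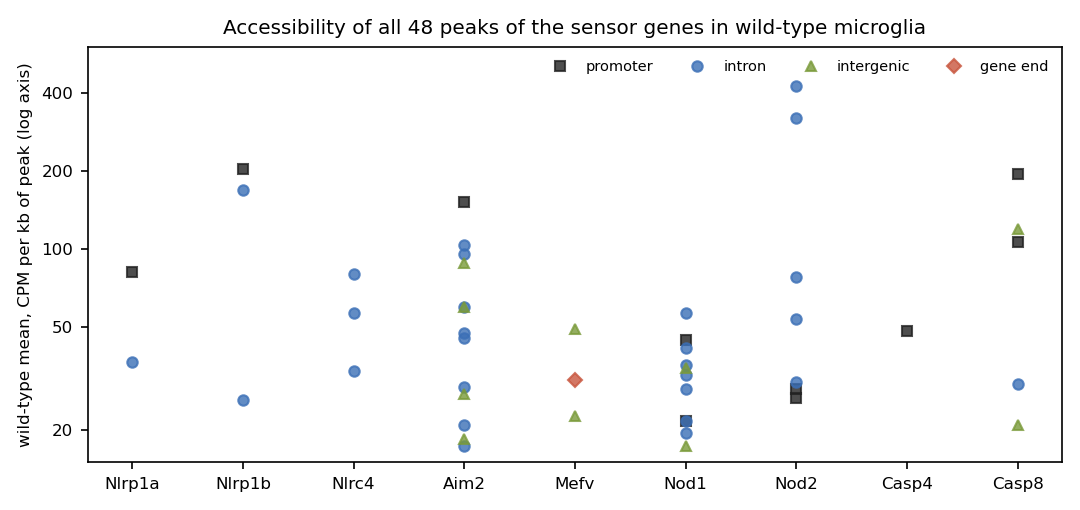
Wild-type mean accessibility in CPM per kilobase of peak (log axis) for all 48 peaks, by gene and by the deposited annotation. The 2 highest, at 318 and 426 CPM per kb, are intronic peaks of Nod2, while the promoter peaks of Nod2 are at 28.7 and 26.5.

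No difference between genotypes passed the test at these genes except at 1 intronic peak of Nod1, which held few or no tags in the knockout. Of the 44 tested peaks, 1 passed at an adjusted p under 0.05 and was lower in the knockout, where 0.17% of all 58135 tested peaks passed 0.115% being lower and 0.055% higher (edgeR quasi-likelihood test, adjusted over all tested peaks). The same peak was the only one of the 44 with an unadjusted p under 0.05 (2.27%, against 4.83% of all tested peaks). The estimates were higher in the knockout for 22 of the 44 peaks and lower for 22, and their median log2 fold change was 0.0044, against 0.0037 over all tested peaks. Genotypes did not overlap at 2 of the 44 peaks (4.55%, against 3.17% of all tested peaks), the Nod1 peak and an intronic peak of Casp8.

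None of the 9 genes passed when its tags were summed over its peaks: 0 of 9 at an adjusted p under 0.05, against 0.213% of 15476 tested genes (0.136% lower and 0.0775% higher), with 0 of 9 at an unadjusted p under 0.05 (edgeR) and 0 of 9 called by DESeq2. The estimates were higher in the knockout for 5 genes and lower for 4, with a median log2 fold change of 0.043 against 0.0020 over all genes, and the genotypes overlapped for all 9 (3.46% of all genes did not overlap). The widest interval of fold changes of knockout over wild type was that of Casp4 (0.905 to 1.64), and the narrowest, that of Aim2, ran from 0.807 to 1.04.

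**Figure D2:**
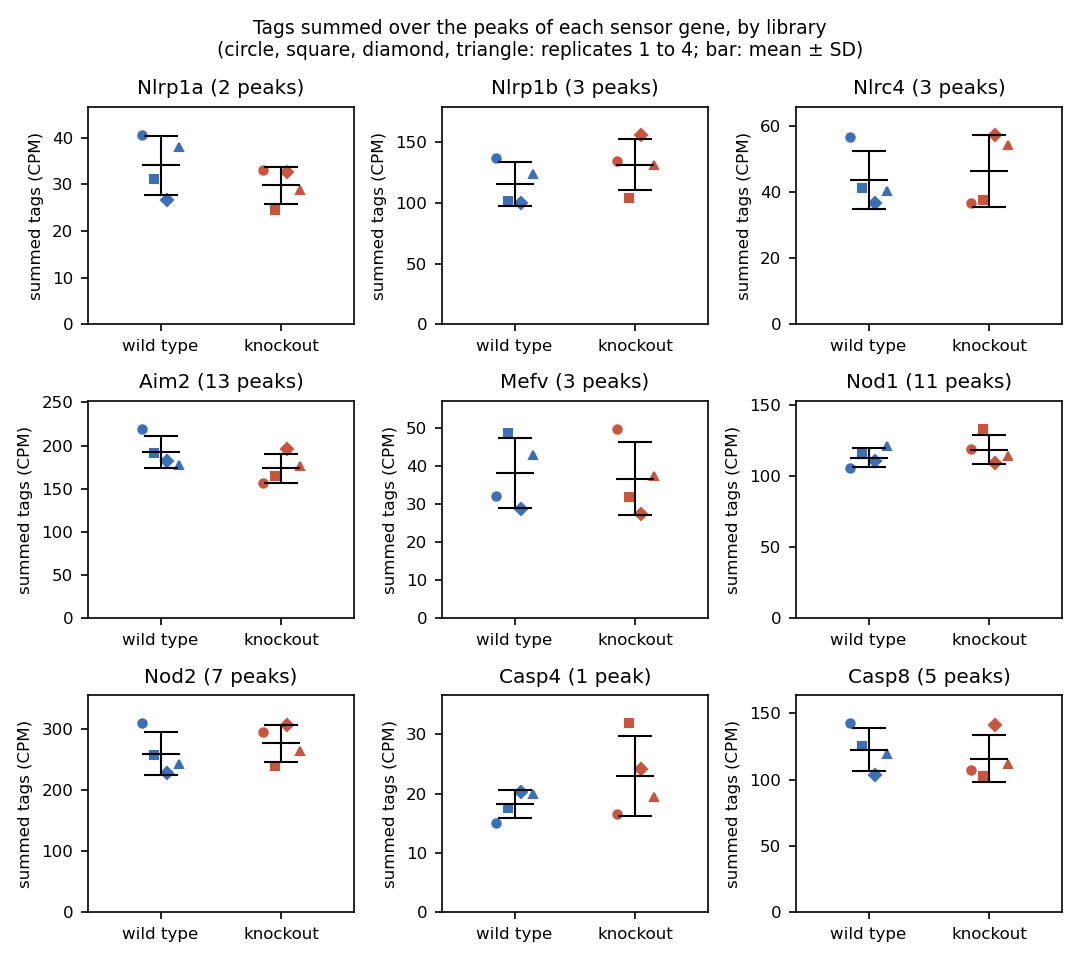
Tags summed over the peaks of each of the 9 genes in CPM, by library (points, with a marker for each replicate number) and genotype (bar: mean ± SD). Wild-type and knockout libraries overlap in every panel. For Aim2 the wild-type libraries lie between 178 and 219 CPM and the knockout libraries between 157 and 196.

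Nlrp1a and Nlrp1b are neighbouring copies on chromosome 11 (71091197 to 71144969 and 71152574 to 71242514, mm10) of the sensor that, in its Nlrp1b form, is known for its activation by the protease of anthrax lethal toxin. They lie 11.52 and 11.59 Mb from Nlrp3, the gene targeted in the knockout, on the same chromosome. The nearest peak that passed the test lies 11602.2 to 11708.9 kb away. Each gene had a promoter peak centred 129 bp before its start site, and these peaks were of unequal height. The Nlrp1b promoter peak (11:71230733–71230992) had 64.1, 47.8, 45.5 and 54.5 CPM in wild-type replicates 1 to 4 and 66.4, 39.9, 68.1 and 58.6 in knockout replicates 1 to 4. The Nlrp1a promoter peak (11:71144701–71144965) had 28.8, 19.7, 16.5 and 21.4 CPM in wild type and 16.9, 13.3, 20.2 and 22.6 in the knockout. Every library was thus higher at Nlrp1b than at Nlrp1a, with 204 ± 32.1 against 81.6 ± 19.7 CPM per kb in wild type, and neither promoter separated the genotypes. The log2 fold change was 0.16 (SE 0.16) at the Nlrp1b promoter and -0.15 (SE 0.22) at that of Nlrp1a (edgeR adjusted p = 1 each).

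The promoter sequences of the pair are shown because the accessible stretch before each start site is alike in sequence yet differs in its tags. They are the 250 bases before the RefSeq start sites (GRCm38.p6, 5′ to 3′ on the minus strand, 11:71144705–71144954 for Nlrp1a and 11:71230734–71230983 for Nlrp1b), with the PU.1 motif in capitals.
Nlrp1a: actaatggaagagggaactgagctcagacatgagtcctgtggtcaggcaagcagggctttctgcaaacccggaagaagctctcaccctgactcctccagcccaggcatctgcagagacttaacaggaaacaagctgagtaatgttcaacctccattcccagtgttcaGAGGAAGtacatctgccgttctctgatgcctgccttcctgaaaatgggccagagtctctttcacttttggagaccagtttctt
Nlrp1b: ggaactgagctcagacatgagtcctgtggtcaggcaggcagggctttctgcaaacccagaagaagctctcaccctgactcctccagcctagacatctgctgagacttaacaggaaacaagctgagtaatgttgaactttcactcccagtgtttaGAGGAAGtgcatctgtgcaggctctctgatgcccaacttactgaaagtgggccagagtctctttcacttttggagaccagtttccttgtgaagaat
With the first 50 transcribed bases included, the windows were identical over 80.6% of the aligned positions (253 identical, 33 mismatched and 28 gapped). Their longest identical run was 37 bases, shorter than the 51 sequenced cycles. A full-length read inside these windows thus meets at least 1 difference between Nlrp1a and Nlrp1b. The neighbouring pseudogene Nlrp1c-ps was not compared. The treatment of reads that fit several places is not stated in the labels or headers, and the split of tags between the copies is uncertain for that reason. RefSeq gives a further start of Nlrp1b (window 11:71201407–71201706), which no peak of these genes overlapped.

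Other peaks assigned to the pair lie in neighbouring copies. The second Nlrp1a peak (11:71159480–71159858) lies in an intron of Nlrp1b and had 13.9 ± 3.16 CPM in wild type and 12.4 ± 3.94 in the knockout. The Nlrp1b peak with the most tags (11:71251358–71251720) lies in the pseudogene Nlrp1c-ps, 20.8 kb before the Nlrp1b start, and had 61.0 ± 7.75 CPM in wild type and 67.2 ± 13.1 in the knockout. The remaining Nlrp1b peak (11:71224699–71224942) lies in its second intron and had 6.39 ± 2.37 and 10.2 ± 2.97 CPM. All 3 Nlrp1b peaks had estimates above 0 and both Nlrp1a peaks below 0. As a sum Nlrp1b had 115 ± 18.1 CPM in wild type and 131 ± 20.995 in the knockout (log2 0.21, SE 0.11, edgeR adjusted p = 0.867), the smallest unadjusted p of the 9 genes (0.0743). Nlrp1a had 34.0 ± 6.36 and 29.7 ± 3.94 CPM (log2 -0.19, SE 0.16, adjusted p = 0.929). The difference between the fold changes of the pair was not tested.

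Nlrc4, on chromosome 17 (74426255 to 74459144), forms an inflammasome with the NAIP proteins, which bind bacterial flagellin and secretion system proteins. It had no promoter peak in the list: its 3 peaks are intronic, 18.5, 26.3 and 27.4 kb inside the gene. The peak nearest the start (17:74440497–74440793) had 20.4, 14.1, 15.9 and 16.8 CPM in wild-type replicates 1 to 4 and 12.1, 13.3, 19.8 and 21.03 in knockout replicates 1 to 4 (log2 0.091, SE 0.22, edgeR adjusted p = 1). The most accessible one (17:74431598–74431855, in the last intron) had 20.7 ± 4.67 and 22.9 ± 7.21 CPM. The sum was 43.7 ± 8.80 CPM in wild type and 46.4 ± 10.8 in the knockout (log2 0.18, SE 0.16, edgeR adjusted p = 0.935). The libraries split across genotypes at Nlrc4. Wild-type replicate 1 and knockout replicates 3 and 4, which had the largest shares of tags in peaks (17.5%, 20.9% and 26.2%), had sums of 56.6, 57.1 and 54.1 CPM. The other 5 libraries lay between 36.6 and 41.2 CPM, and the part of the share of tags in peaks in this was not tested.

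Aim2, on chromosome 1 (173349547 to 173466040), encodes a sensor of double-stranded DNA in the cytosol. It had the most peaks of the 9 genes, 13, of which 10 were tested. Its promoter peak (1:173420387–173420627) had 42.3, 28.1, 39.3 and 36.3 CPM in wild type and 21.7, 29.5, 41.7 and 45.9 in the knockout. The knockout libraries span the wild-type range on both sides, and the lowest is knockout replicate 1 (log2 0.027, SE 0.19, edgeR adjusted p = 1). Per kilobase this promoter, at 151 ± 25.3 CPM per kb in wild type, stood above 85.7% of all tested promoter peaks. Of the other 9 tested peaks all had estimates below 0, from -0.54 to -0.018, and none passed. As a sum Aim2 had 219, 191, 182 and 178 CPM in wild-type replicates 1 to 4 and 157, 165, 196 and 177 in knockout replicates 1 to 4. Knockout replicate 3 lay above 3 of the wild-type libraries, so the genotypes overlapped (log2 -0.13, SE 0.089, adjusted p = 0.899). The deposited annotation calls the Aim2 peaks before the promoter peak intergenic, although the RefSeq span of Aim2 takes them in. An untested peak among them, -19.025 kb from the start (1:173401408–173401750), stood in the wild-type list alone. It had 12, 9, 9 and 17 tags in wild type and 3, 1, 6 and 11 in the knockout, and in CPM the genotypes did not overlap (6.33 ± 1.17 and 2.82 ± 1.00). An untested peak of the knockout list alone (1:173453494–173453697) had 3.54 ± 0.309 CPM in wild type and 5.92 ± 2.12 in the knockout, and the third untested peak (1:173422955–173423200) 5.17 ± 1.40 and 5.25 ± 3.04. Each list is named for 1 of the genotypes compared, so being listed in 1 alone is not independent of the difference.

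The 250 bases before the Aim2 start (1:173420354–173420603, plus strand) are shown because they hold the same PU.1 motif, in capitals, as both Nlrp1 promoters.
Aim2: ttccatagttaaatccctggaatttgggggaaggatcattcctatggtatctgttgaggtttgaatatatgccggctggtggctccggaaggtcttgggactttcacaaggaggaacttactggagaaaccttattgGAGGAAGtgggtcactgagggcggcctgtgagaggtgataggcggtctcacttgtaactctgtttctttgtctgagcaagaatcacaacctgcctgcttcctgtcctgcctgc
The motif GAGGAAG, the core of the site of PU.1, a factor that macrophages and microglia need to form, was found in 3 of the 12 RefSeq windows of these genes (250 bases before to 50 after a start, both strands searched) and in 13.6% of all 32851 such windows. The matches lie 113 to 107 bases before the start of Aim2, 83 to 77 before that of Nlrp1a and 96 to 90 before that of Nlrp1b, each inside the promoter peak. None of the 12 windows held the PU.1-IRF composite, GGAA and GAAA with 2 bases between (2.72% of all windows), the interferon element, GAAA repeated with 2 bases between (3.44%), or the AP-1 motif TGANTCA (7.81%). The interferon-activated GAS motif TTCNNNGAA was in 1 window, at the second RefSeq start of Nod1 (8.30% of all). The NF-kB motif was in 2 windows, both of Casp4 (8.46% of all). The upstream start of Casp8 has no window among the 12 and was not searched. Motifs may share bases. The windows of the Nlrp1 pair are alike in sequence and the 2 of Casp4 overlap, so the 12 windows are not independent. A match is a description of letters only.

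Mefv, on chromosome 16 (3706974 to 3718211), encodes pyrin, which responds to toxins that inactivate RhoA. No peak overlapped its RefSeq promoter window, and its 3 peaks lie -5.205 kb from the start, at the gene end and beyond it. The peak nearest the start (16:3723035–3723623) had 7.95, 20.4, 10.2 and 14.9 CPM in wild type and 21.7, 8.86, 13.2 and 12.9 in the knockout, and so varied as much within a genotype as between them. The Mefv sum was 38.1 ± 9.26 CPM in wild type and 36.6 ± 9.56 in the knockout (log2 -0.093, SE 0.18, edgeR adjusted p = 0.988). No peak on chromosome 16 passed.

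Nod1 lies on chromosome 6 (54923942 to 54972674) and encodes the receptor for peptidoglycan that contains diaminopimelic acid. The peak that changed lies in its first intron (6:54954687–54954918, 232 bp), 16.9 kb from the nearest annotated start. Nod1 has more than 1 annotated start, and the distances of its peaks are not all from the same one. It held 14, 12, 12 and 23 tags in wild-type replicates 1 to 4 and 2, 2, 1 and 0 in knockout replicates 1 to 4. In CPM these are 6.96, 8.43, 6.83 and 10.7 against 2.41, 2.95, 0.439 and 0, so that every knockout library lay below every wild-type library. Knockout replicates 3 and 4, the libraries with the most tags in peaks (2372666 and 3252424) but not the most tags in all, had the fewest tags here. The 0 of knockout replicate 4 allows up to 0.970 CPM, by counting error alone (a limit of 3 tags).

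The means were 8.23 ± 1.81 CPM in wild type and 1.45 ± 1.45 in the knockout, a ratio of 5.67 when libraries count equally. The fitted log2 fold change, in which libraries with more tags in peaks weigh more, was -3.34 (SE 0.60, 95% interval -4.56 to -2.11, edgeR adjusted p = 0.00728, lower in 4 of 4 knockout libraries). Over each group the tags came to 61 in wild type and 5 in the knockout, 11.4 times as many relative to depth (exact 95% limits 4.64 and 36.5, for counting error only). These limits were computed for this peak because it passed, and do not allow for that choice. The peak stood in the wild-type list alone and passed the filter on low counts through the wild-type libraries alone. Its choice for the test is therefore not independent of the difference, and its p-value and interval do not allow for that. Its wild-type level, 35.5 CPM per kb, was modest, above 43.2% of all tested peaks. The call was lost without knockout replicate 3 (adjusted p = 0.104), knockout replicate 4 (0.0563) or wild-type replicate 4 (0.0758), with log2 fold changes of -3.06, -2.53 and -3.16, and over all alternatives the edgeR or DESeq2 adjusted p ranged from 0.000125 to 0.104.

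No other peak of Nod1 passed. The nearest, 1.7 kb away in the same intron (6:54956383–54956679), had 7.46, 12.6, 9.68 and 8.85 CPM in wild type and 12.1, 8.86, 9.66 and 11.0 in the knockout (log2 0.14, 95% interval -0.41 to 0.69). The next on the other side, 6.0 kb away (6:54948656–54948988), had 13.8 ± 2.18 and 15.9 ± 8.46 CPM. The promoter peak (6:54972170–54972788) had 20.9, 31.6, 28.5 and 29.3 CPM in wild type and 27.8, 28.1, 19.8 and 25.2 in the knockout, which overlap, although knockout replicate 3 lay below every wild-type library and 3 wild-type libraries above every knockout library (log2 -0.17, 95% interval -0.57 to 0.23, edgeR adjusted p = 1). Over its 11 peaks the estimate was above 0 for 6. The sum was 113 ± 6.58 CPM in wild type and 119 ± 10.3 in the knockout (log2 0.043, SE 0.093, adjusted p = 0.991), and the estimate turned to -0.18 when only peaks within 20 kb of the start were summed. The largest estimate above 0 among the 44 tested peaks was also at Nod1, at a peak of the knockout list alone, -2.118 kb from the start (6:54974573–54974888), with 5.47 ± 1.54 and 10.8 ± 5.50 CPM (log2 0.70, 95% interval -0.092 to 1.496, adjusted p = 1).

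**Figure D3:**
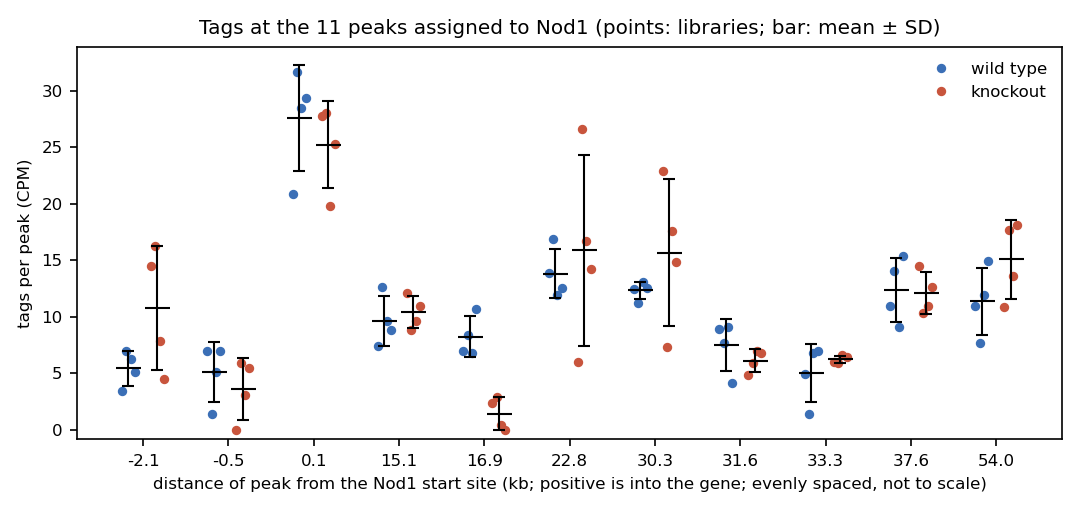
Tags in CPM at the 11 peaks assigned to Nod1, ordered by distance in kb from the nearest annotated start site. Points are libraries and bars are mean ± SD, for wild type and knockout. The intronic peak at 16.9 kb is at 6.83 to 10.7 CPM in wild-type libraries and 0 to 2.95 in knockout libraries, while the genotypes overlap at the other 10.

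The surroundings of the changed Nod1 peak were then examined. Within 500 kb on each side 52 peaks were tested and 3 passed (0.17% of all tested peaks did), namely the Nod1 peak on which the window was centred and a pair assigned to Mturn. The Mturn peaks lie at -275.5 and -255.2 kb from it on the chromosome and changed in opposite directions, with log2 fold changes of 3.70 (6:54679219–54679472) and -2.97 (6:54699489–54699754). Whether the change at Nod1 and those at Mturn are related was not tested. For the other 8 genes the closest peak that passed lay 4432.3 kb from a Nod2 peak.

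Nod2, on chromosome 8 (88647315 to 88688474), encodes the receptor for muramyl dipeptide, the peptidoglycan fragment common to most bacteria. Its most accessible sites were intronic. The peak in intron 4, 21.4 kb from the start (8:88668609–88668884), had 140, 115, 104 and 110 CPM in wild type and 133, 115, 145 and 112 in the knockout. It stood above 99.9% of all tested peaks per kilobase in wild type, at 426 CPM per kb. The peak in intron 3, 15.2 kb from the start (8:88662399–88662656), had 95.5, 84.3, 67.2 and 81.5 CPM in wild type and 74.8, 57.6, 94.8 and 81.2 in the knockout. The genotypes overlapped at both, with log2 fold changes of 0.11 (95% interval -0.14 to 0.35) and -0.051 (-0.34 to 0.24).

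The Nod2 promoter peak (8:88646882–88647607) was broad, at 726 bp against a median width of 268 bp over all listed peaks. It was low per kilobase, at 26.5 ± 4.98 CPM per kb in wild type, above 12.6% of tested promoter peaks. Such a level and rank depend on the width of the merged peak. It had 17.4, 24.6, 18.2 and 16.8 CPM in wild type and 37.4, 28.1, 23.7 and 16.5 in the knockout, with knockout replicate 4 below every wild-type library (log2 0.34, SE 0.23, edgeR adjusted p = 1). Over its 7 peaks Nod2 had 260 ± 35.1 CPM in wild type and 277 ± 30.6 in the knockout (log2 0.10, SE 0.093, adjusted p = 0.938).

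Casp4 encodes the murine caspase-11, which binds cytosolic lipopolysaccharide and cuts gasdermin D without caspase-1. It lies on chromosome 9 (5308849 to 5336791), and its only peak is at the promoter (9:5308540–5308935). The peak had 15.4, 18.3, 21.6 and 20.96 CPM in wild type and 16.9, 32.5, 25.03 and 20.4 in the knockout. The highest value belongs to knockout replicate 2, the library with the fewest tags in peaks, where it rests on 22 tags (log2 0.27, SE 0.21, 95% interval -0.16 to 0.70, edgeR adjusted p = 1).

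The 250 bases before the first RefSeq start of Casp4 (9:5308599–5308848, plus strand) are shown because they held NF-kB motifs, the element of the factor that NOD receptors activate, in capitals.
Casp4: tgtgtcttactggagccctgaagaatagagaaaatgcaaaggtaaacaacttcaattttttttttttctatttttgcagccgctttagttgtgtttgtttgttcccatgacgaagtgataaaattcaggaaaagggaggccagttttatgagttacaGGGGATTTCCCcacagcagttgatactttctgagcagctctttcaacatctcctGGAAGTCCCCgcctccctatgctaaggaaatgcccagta
Its 4 matches, on both strands, fall on 2 stretches, which lie 93 to 83 and 39 to 30 bases before the start and inside the promoter peak. The other RefSeq window of Casp4 overlaps this one and holds the same stretches.

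Casp8, on chromosome 1 (58795233 to 58847503), encodes the initiator caspase of death receptors, which also restrains necroptosis and can cut gasdermin D. It had promoter peaks at both annotated starts. The downstream one (1:58802396–58802647) had 57.2, 47.8, 45.5 and 45.7 CPM in wild type and 63.9, 39.9, 58.4 and 44.3 in the knockout (log2 0.072, SE 0.16), above 92.1% of tested promoter peaks per kilobase. The upstream one (1:58795277–58795586) had 34.3, 38.6, 23.9 and 34.5 CPM in wild type and 20.5, 23.6, 34.7 and 22.97 in the knockout, where knockout replicate 3 reached the wild-type level and the other 3 lay below every wild-type library (log2 -0.31, SE 0.20, edgeR adjusted p = 1). An intronic peak 2.19 kb inside the gene (1:58797444–58797687), in the wild-type list alone, had 6.32 to 8.85 CPM in wild type and 4.39 to 5.91 in the knockout. The genotypes did not overlap there, but it held only 4 to 19 tags per library and did not pass (log2 -0.55, 95% interval -1.21 to 0.12, adjusted p = 1). The sum also takes in intergenic peaks -21.25 and -21.898 kb from the upstream start, where RefSeq places another gene, Gm39646. They had 33.1 ± 4.78 and 5.65 ± 2.23 CPM in wild type and 32.5 ± 11.6 and 4.87 ± 2.80 in the knockout. The Casp8 sum was 123 ± 15.9 CPM in wild type and 116 ± 17.4 in the knockout (log2 -0.050, SE 0.11, edgeR adjusted p = 0.991). Its estimate turned to 0.057 when libraries were scaled to all tags.

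**Figure D4:**
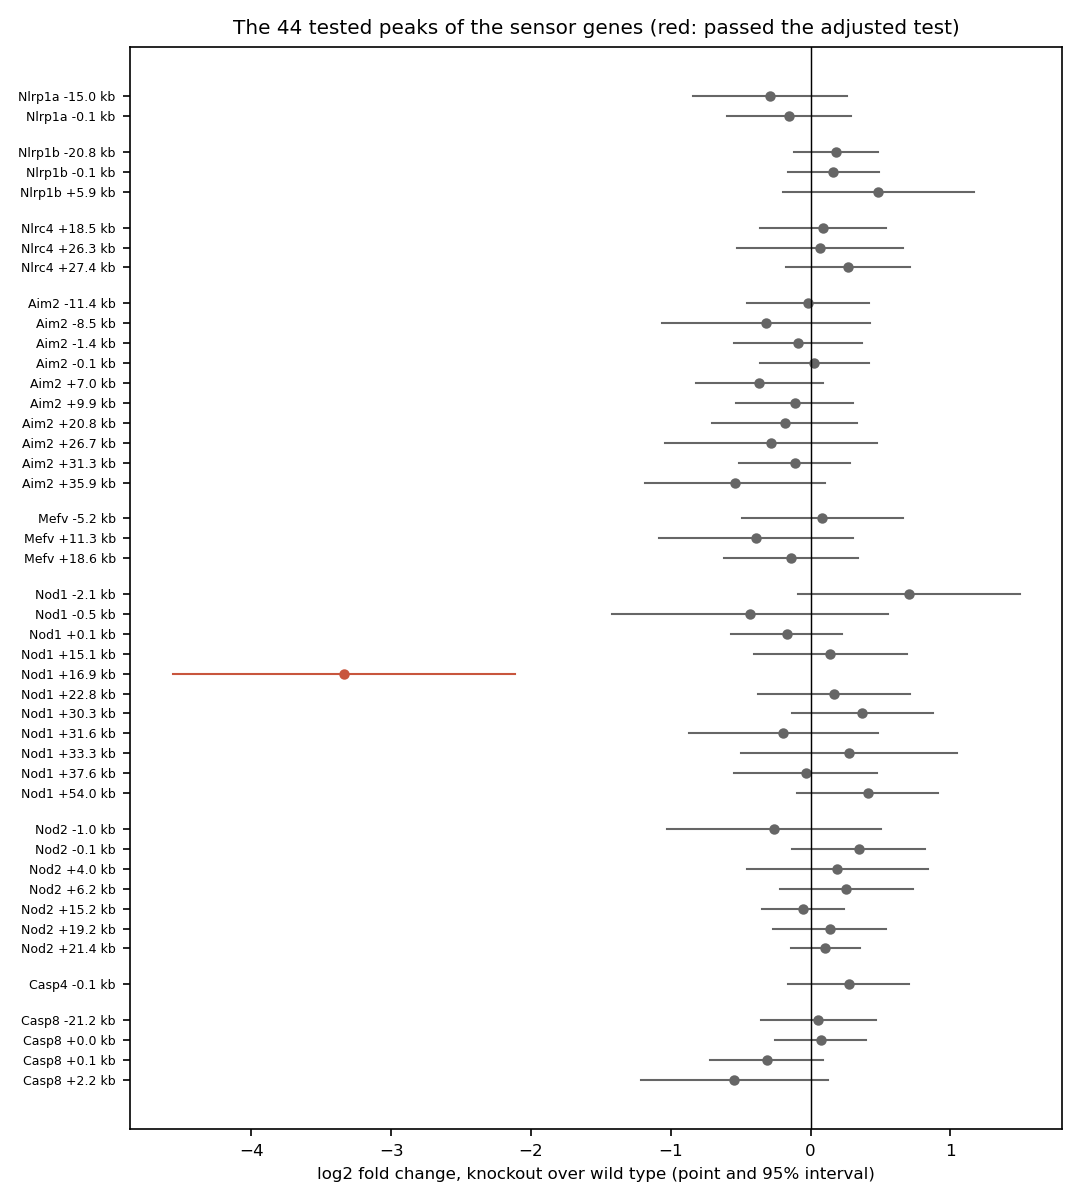
Log2 fold changes of knockout over wild type with 95% intervals for the 44 tested peaks, by gene and distance from the nearest annotated start in kb. The Nod1 peak at 16.9 kb lies at -3.34, and the other 43 lie between -0.55 and 0.70 with intervals that include 0.

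The other genes of these pathways were described from 5 lists. Of 68 genes, 56 had a tested sum, of which 33 had estimates higher and 23 lower in the knockout. None passed as a sum (0 of 56, edgeR, against 0.213% of all tested genes), and 3 had an unadjusted p under 0.05, against 5.96% of all genes. None of their 346 tested peaks passed, against 0.17% of all tested peaks. Of these peaks 13 had an unadjusted p under 0.05 (3.76%, against 4.83% of all tested peaks). With shares of called features so small, counts of 0 say little about lists of this size. The 10 adaptors and executioners had a median log2 fold change of 0.044, with Casp12 at 0.24 (SE 0.19) and Casp1, the caspase of canonical inflammasomes, at -0.066 (SE 0.34). Of 19 NAIP and other sensors 7 had tested sums, with a median of 0.20. Zbp1, a sensor of Z-form nucleic acids that engages RIPK3, had 154 ± 21.5 CPM in wild type and 189 ± 36.1 in the knockout over 15 peaks (log2 0.24, SE 0.12, adjusted p = 0.831), and Nlrx1 had a log2 fold change of -0.12 (SE 0.15).

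Among 13 regulators of the sensors the median was 0.019, with Irf8 at 0.10 (SE 0.076) over 39 peaks and Gm12250, which encodes the GTPase Irgb10, at -0.31 (SE 0.22). The 16 genes of NOD signalling had a median of -0.010. Card9, an adaptor of myeloid receptors, had 78.5 ± 13.0 and 91.6 ± 13.4 CPM (log2 0.21, SE 0.12), and Erbin, a protein that binds NOD2, 78.4 ± 9.77 and 66.7 ± 9.47 (log2 -0.17, SE 0.12; edgeR adjusted p = 0.881 and 0.897). The lowest adjusted p of a peak in any of the 5 lists, 0.269, was in this one. The 10 genes of caspase-8 complexes had a median of 0.016. Their smallest unadjusted p were those of Cyld, a deubiquitinase of cell death complexes (95.04 ± 8.35 in wild type and 77.4 ± 8.84 CPM in the knockout, log2 -0.25, SE 0.10, adjusted p = 0.740), and of the death receptor gene Fas (8.07 ± 1.71 and 13.7 ± 4.40 CPM at its single peak, log2 0.64, SE 0.28, adjusted p = 0.768).

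For each of the 9 genes the most similar other gene was sought by the root mean square difference of log2 CPM of the sums over the 8 libraries. The closest pair was Nod1 and Derl1 (0.055), followed by Nod2 and Rplp1 (0.068), Casp8 and Utrn (0.090), Aim2 and Rragc (0.093) and Nlrp1b and Paqr7 (0.11). The others were Nlrp1a and Gkap1 (0.12), Casp4 and Pinx1 (0.13), Mefv and 4930405A21Rik (0.14) and Nlrc4 and the purinergic receptor gene P2rx1 (0.15). These are descriptions over libraries that share their scaling, with no test.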

How the data were processed

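The deposited raw table holds counts, whole tags per peak and library, over a merged list of the wild-type and knockout peaks whose list names carry idr, a filter on reproducibility. Per the file headers, the authors made it with HOMER's annotatePeaks on mm10, at given peak sizes and at most 3 tags per position. A second deposited table, of signal that the authors scaled to a common total per library, gave no value here. Bowtie2, HOMER and DESeq2 are named without versions in the submitters' processing notes. Alignment settings and any shift of read ends are not given in the sources. Libraries of 165 to 250 bp were sequenced for 51 cycles, per the labels' protocols.

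All peaks and, separately, tags summed by gene name were tested with edgeR 4.0.16 (quasi-likelihood F test, TMM, filterByExpr at a minimum count of 10, genotype as the only term, R 4.3.3), with Benjamini-Hochberg adjustment over all tested features and a threshold of 0.05. The 117 peaks without a gene (0.134% of tags in peaks) stayed out of the sums. SE is the absolute log2 fold change over the square root of F, and intervals use its t quantile. DESeq2 1.42.0 served as an alternative. The fitting script was tested on simulated counts. Members and lists were chosen with earlier results of these data known. Described per library were, for each gene, the peak nearest the start and member peaks with an unadjusted p under 0.05. Other peaks given per library, and the Mturn pair, were chosen after their values were seen. From the lists, genes that passed were to be named, and the sum with the smallest p in each direction. Pyhin1 was dropped as another name of Ifi209. Gene spans and promoter windows came from RefSeq (GRCm38.p6), which matched all 9 genes in 12 windows.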

Additional observations from a re-analysis of the deposited data

How the results depend on the processing

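The 9 sums passed in none of the 18 alternatives, and the 9 peaks nearest the starts passed in none of their 15. The intronic Nod1 peak kept its call in 12 of 15, and the number of called peaks of these genes was 0 to 1 when 1 library was left out, being 0 without knockout replicate 3, knockout replicate 4 or wild-type replicate 4; the cause was not tested. Its log2 fold change was -5.08 without knockout replicates 1 and 2 together and -3.31 with the replicate block (adjusted p = 0.00801), which changed no call of these genes. Correlations of deviations between libraries of equal replicate number were -0.0083 to 0.147. Knockout replicates 2 and 4 correlated best with their own numbers and the others did not. The block raised the called peaks over all features from 99 to 140. Whether equal replicate numbers mark a shared preparation was not tested. Signs turned for 3 sums and 5 of the peaks nearest the starts, none of which passed. The Nod1 sum turned to -0.020 without knockout replicates 1 and 2 together and to -0.18 with peaks within 20 kb of the start. The Casp8 sum turned to 0.057 with scaling to all tags and 0.036 without knockout replicates 1 and 2 together, and the Aim2 promoter to -0.0042 with the DESeq2 test and -0.032 with the replicate block. When 1 library was left out, the log2 fold change ranged from -0.21 to 0.050 for the Mefv sum, -0.18 to 0.031 for the Casp8 sum, -0.15 to 0.16 for the Aim2 promoter, -0.018 to 0.17 for the downstream Casp8 promoter, -0.11 to 0.32 and -0.054 to 0.20 for the peaks nearest the starts of Mefv and Nlrc4, and -0.29 to 0.021 for the Nlrp1a promoter. Over all features, called peaks ranged from 19 to 246 around 99, and called genes from 0 to 70 around 33, the 0 being sums without called peaks, an alternative chosen after seeing the data. The median tested peak rose by 0.10 on the log2 scale with scaling to all tags.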
